A study of Mus musculus with 19 samples.

Results

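The 8 genes described here encode the core protein matrix of perineuronal nets, and were taken by name from tables of 55487 genes. They are the proteoglycan genes Acan, Bcan, Ncan and Vcan, the link protein genes Hapln1 and Hapln4, and the tenascin genes Tnr and Tnc. All 8 were found by Ensembl identifier in every library and all 8 passed edgeR's expression filter, with 19105 genes tested in all. Expression was measured by RNA sequencing of frozen cerebral cortex from male P301S/E4 mice aged 41 weeks. The name joins P301S, a mutation of human tau that causes frontotemporal dementia, with E4, a form of apolipoprotein E, and both treatment groups carried this genotype. In 10 libraries the mice had received lemborexant, an antagonist of both orexin receptors used against insomnia, at 30 mg/kg by daily gavage. In 9 libraries they had received the vehicle, 0.5% methylcellulose. Dosing was at zeitgeber time 13, soon after lights off, from 7.5 to 9.5 months of age. The labels do not give the promoter of the tau transgene or say whether each library came from its own animal, and libraries of another genotype were not analysed here.

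A perineuronal net is a lattice of extracellular matrix that wraps the cell body and proximal dendrites of certain neurons, in cortex above all the fast-spiking interneurons that make parvalbumin. Its backbone is hyaluronan, made at the cell surface by hyaluronan synthases. Lecticans, a family of chondroitin sulphate proteoglycans, bind that backbone through an N-terminal domain, link proteins lock the bond, and tenascin-R ties lecticans together at their other end. Nets form late in development and are known for limiting plasticity, and microglia are known to be able to remove them.

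Each lectican gene lies beside a link protein gene. In the GRCm38 build Acan (ENSMUSG00000030607) spans chromosome 7 from 79053483 to 79115099 on the plus strand, and its end lies 2 bases from that of Hapln3. Bcan (ENSMUSG00000004892) lies on chromosome 3 from 87987531 to 88000230 on the minus strand, 21519 bases from Hapln2. Ncan (ENSMUSG00000002341) occupies chromosome 8 from 70093085 to 70120873 on the minus strand. Hapln4 (ENSMUSG00000007594) lies 2222 bases away, from 70083457 to 70090862 on the plus strand, so that the ends of the gene pair face each other. Vcan (ENSMUSG00000021614) spans chromosome 13 from 89655312 to 89742509 on the minus strand, with Hapln1 (ENSMUSG00000021613) 43659 bases away at 89539796 to 89611652 on the plus strand. The tenascin genes lie apart, Tnr (ENSMUSG00000015829) on chromosome 1 from 159523769 to 159931729, plus strand, and Tnc (ENSMUSG00000028364) on chromosome 4 from 63959785 to 64047015, minus strand. No protein-coding gene lies between the partners in any of these lectican and link protein pairs.

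Each library had between 20185098 and 31795633 estimated reads assigned to genes. Of these libraries 4 stood apart: vehicle 1 and 4 and lemborexant 1 and 10 had 0 to 0.253 CPM, the normalised read count, of Cst7, the gene of the protease inhibitor cystatin F that activated microglia switch on, where the other 15 had 16.4 to 144 CPM. The same 4 carried the astrocyte gene Gfap at 430 to 582 CPM against 3023 to 8699 CPM, and Mapt, the tau gene, at 311 to 468 CPM against 574 to 1046 CPM, although their labels give the same genotype. Their levels of activated microglia genes, summed over 11 markers, were 753 to 933 CPM against 2125 to 7817 CPM. Lemborexant 1 and 10, 3 and 8, and 4 and 9 were nearly alike, as their counts differed by a chi-square of 3.08 to 3.66 per degree of freedom, where the other 168 pairs of libraries gave 12.2 to 274. They differed by more than counting noise, which cannot show whether a pair came from the same animal or from separate animals. They were tested as separate libraries, and beside this with the reads of each pair summed, which leaves 16 units. Of the cortical excitatory neuron list, 8 of 8 genes were detected in every library, with the lowest summed level, 599 CPM, in lemborexant 7. Marker lists of several brain regions and linings, and of liver, differed between the groups. Of liver genes 5 of 5 tested were lower past the threshold (median log2 change -4.35). Their summed level was 2.50 to 852 CPM in vehicle libraries, highest in vehicle 7, and 2.52 to 7.26 CPM in lemborexant libraries. Of 15 hippocampal genes 15 were lower after lemborexant, 3 past the threshold, and none was at 0 in any library. The hippocampal list's summed level was 769 to 1071 CPM in vehicle and 490 to 950 CPM in lemborexant libraries. Its score, which averages the centred log2 CPM of the 15 genes, was 0.29 to 0.64 in vehicle and -1.13 to 0.43 in lemborexant libraries. In the other direction 9 of 9 tested thalamic genes were higher (Tcf7l2 and Rgs16 past the threshold, median log2 change 1.06), with a summed level of 75.7 to 141 CPM in vehicle and 109 to 401 CPM in lemborexant libraries. Of striatal genes 10 of 10 tested were higher (Drd1 past the threshold, median 0.65), at 70.7 to 106 against 87.2 to 178 CPM. Of meningeal genes 10 of 11 were higher (median 1.18, at 97.6 to 302 against 89.1 to 587 CPM) and choroid plexus genes in 10 of 10 (median 0.65, at 184 to 11441 against 302 to 13883 CPM), with none past the threshold. In the excitatory list Neurod2 was lower and Rorb higher past the threshold. These counts stand beside 2.61% of all 19105 genes tested that passed in either direction and 1.65% that passed and were lower. The hippocampal score was the 1 of these lists used as a covariate, and the part of the others in the results was not tested. Among libraries with at least 1 CPM of Cst7 this score did not overlap, at 0.29 to 0.64 in vehicle and -1.13 to 0.01 in lemborexant libraries. Score and treatment thus largely go together, and a fit with both cannot fully tell them apart.

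Per length, 2 lecticans were the most abundant transcripts of the 8. The deposited TPM scale divides by effective transcript length, not by the gene's span. On it Bcan had a median of 76.2 TPM over the 19 libraries (57.5 to 106) and Ncan 71.5 TPM (26.6 to 117). Bcan was above Ncan in 12 of 19 libraries, so their order was not fixed. Tnr followed at 15.3 TPM (5.74 to 23.3) and Hapln4 at 12.99 TPM (7.32 to 16.5), with Tnr above in 11 of 19. Hapln1 stood at 6.92 TPM (1.44 to 11.1) and exceeded Vcan, at 3.93 TPM (1.91 to 6.05), in 17 of 19. The genes with the lowest levels were Tnc at 0.730 TPM (0.306 to 1.48) and Acan at 0.472 TPM (0.110 to 0.603), with Tnc above in 14 of 19. Aggrecan, the lectican that defines nets around parvalbumin cells, thus had the lowest transcript level per length of the 8 in this bulk tissue. Between Ncan and Tnr, between Hapln4 and Hapln1 and between Vcan and Tnc the order held in 19, 19 and 19 of 19 libraries.

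**Figure D1:**
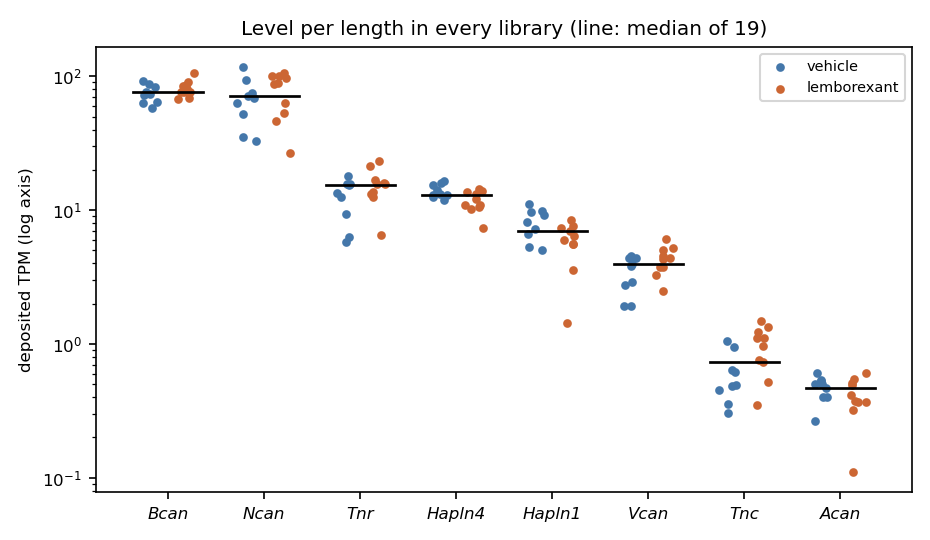
Deposited TPM of the 8 genes on a log axis, 1 point per library, with a line at the median of all 19. Bcan and Ncan lie near 76.2 and 71.5 TPM, and Acan and Tnc reach at most 0.603 and 1.48 TPM.

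Reads per gene set how finely each can be compared. Acan had 16 to 69 reads per library and Tnc 49 to 195, while Bcan had 2921 to 5525 and Ncan 3654 to 16641. Vcan, Hapln1, Tnr and Tnc overlap genes on the other strand, and the strand setting of the counting is not given in the sources used here. The antisense gene Gm38039 within Tnr held a median of 343 reads beside 1468 for Tnr. The processed pseudogene Gm8546 within Hapln1 held 110 beside 406, and Gm4117 held 41 beside 391 for Vcan. Reads of these 3 members and of their overlapping partners cannot be fully told apart.

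After lemborexant the link protein gene Hapln4 fell by 0.48 on the log2 scale, to 26.3 from 36.8 CPM, and none of the 4 lecticans and neither tenascin passed the test. Hapln4 was thus 1 of 8 called, against 2.61% of all genes tested in either direction and 1.65% that fell. None of the 8 passed with the nearly alike pairs summed, where 0 of 19224 genes were called. Hapln1 was lower by a similar amount and did not pass, although its values did not overlap between the groups. By sign 3 genes were higher and 5 lower, with a median log2 change of -0.05 against 0.03 over all genes. In bulk tissue fewer cells of a type and less RNA per cell cannot be told apart. The p-values measure the spread between libraries, which may in part be technical.

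**Figure D2:**
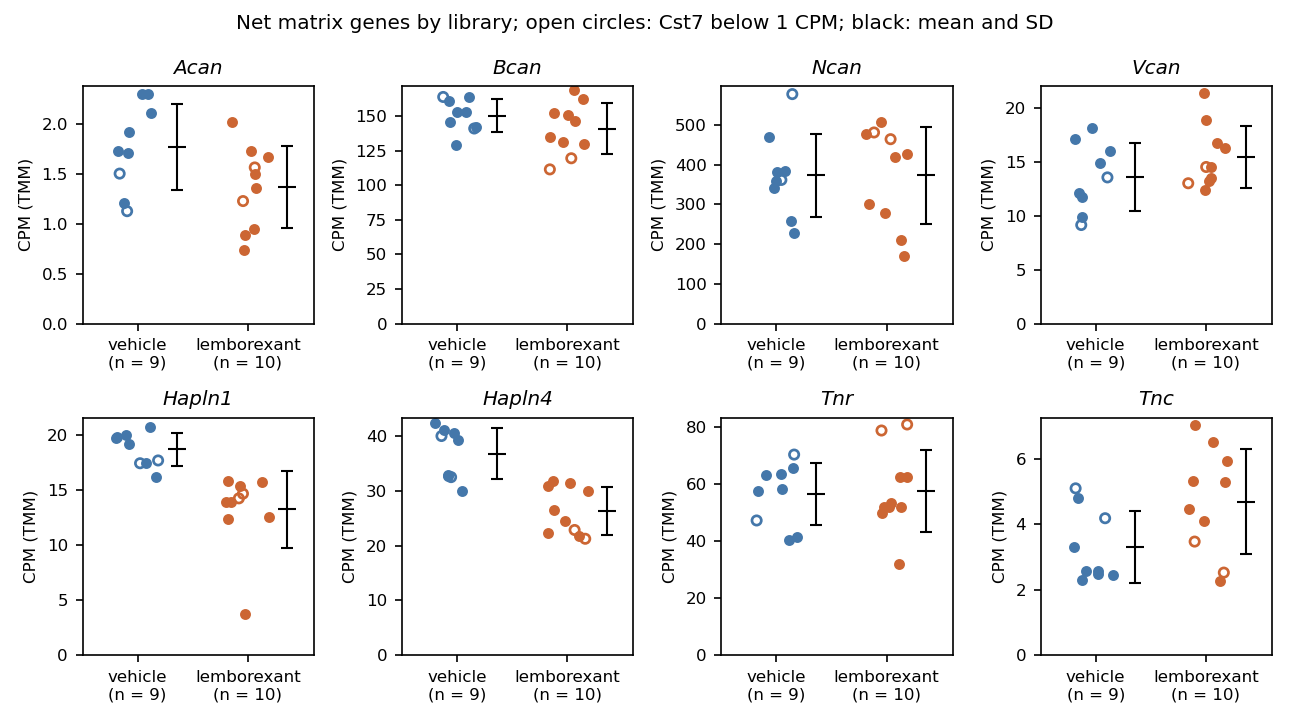
CPM of the 8 genes in each library, 9 vehicle and 10 lemborexant, with the mean and SD in black and open circles for the 4 libraries with Cst7 below 1 CPM. For Hapln1 the highest lemborexant library, at 15.8 CPM, lies below the lowest vehicle library, at 16.2 CPM.

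Hapln4 encodes a link protein of the brain that holds lecticans to hyaluronan around synapses and cell bodies. The vehicle libraries had a lowest level of 30.0, a median of 39.2 and a highest level of 42.4 CPM, and the lemborexant libraries 21.2, 25.5 and 31.9 CPM. All 10 lemborexant libraries lay below the vehicle median and 7 of 10 below every vehicle library, 1 of them, lemborexant 2, just under vehicle 8 (30.0 CPM in both). The remaining 3 lay within the vehicle range, and with the nearly alike pairs averaged 5 of 7 units lay below it. The vehicle mean was 36.8 ± 4.67 CPM (SD, n = 9) and the lemborexant mean 26.3 ± 4.36 CPM (SD, n = 10). On the log2 scale Hapln4 changed by -0.48 ± 0.10 (SE), at an edgeR adjusted p of 0.0254. The lowest values, 21.2 to 22.9 CPM, came from lemborexant 1, 6, 7 and 10. With the nearly alike pairs summed the log2 change was -0.48 with an adjusted p of 0.0747, where 0.0% of genes passed (0 called, and 4102 of 19224 at an unadjusted p under 0.05). The call was also lost without lemborexant 4 (adjusted p = 0.0531) or lemborexant 9 (0.0541), which form 1 nearly alike pair, or without vehicle 4 (0.0557). In these fits 35, 31 and 39 genes were called. With the hippocampal score as a covariate the log2 change was -0.41 (adjusted p = 0.295), in a fit in which 0 genes passed (3202 at an unadjusted p under 0.05). Since score and treatment largely go together, that fit cannot show whether the change is separate from the score. On log2(TPM + 1) it was -0.24 (limma adjusted p = 0.145), on a scale where the median gene changed by 0.18. Without the 4 libraries low in Cst7 it was -0.44 (adjusted p = 0.0412), where 2.71% of genes passed. Within the library numbers 1064 to 1602 it was -0.54 (adjusted p = 0.0567), and within 859 to 933, which hold 5 libraries, it was -0.25 and did not pass.

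Hapln1 encodes the link protein first known from cartilage, which net-bearing neurons also make. The vehicle libraries ran from 16.2 CPM over a median of 19.2 to 20.8 CPM, and the lemborexant libraries from 3.77 over 14.1 to 15.8 CPM. All 10 lemborexant libraries lay below all 9 vehicle libraries, as for 0.141% of the genes tested in that direction. The same held with nearly alike pairs averaged (0.262% of genes) and among libraries with at least 1 CPM of Cst7 (0.921% of genes), but not on the deposited TPM scale or on CPM from library totals. The vehicle mean was 18.7 ± 1.53 CPM (SD, n = 9) and the lemborexant mean 13.2 ± 3.54 CPM (SD, n = 10). On the log2 scale Hapln1 changed by -0.50 ± 0.17 (SE), with an edgeR adjusted p of 0.0896. Lemborexant 7, at 3.77 CPM, lay far under the next library, at 12.4 CPM. It was also the library with the lowest level of cortical excitatory neuron genes, whose part in this value was not tested. Without lemborexant 7 the log2 change was -0.40 ± 0.07 (SE) with an adjusted p of 0.0204, a call that the fit of all libraries did not make. With the nearly alike pairs summed the log2 change was -0.40 without lemborexant 7 (adjusted p = 0.102) and -0.56 with it (adjusted p = 0.142), and neither passed. Within the library numbers 1064 to 1602 and 859 to 933 the log2 changes were -0.51 and -0.51 (adjusted p = 0.157 and 0.863). With the hippocampal score as a covariate the log2 change was -0.23 (adjusted p = 0.560).

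The lecticans did not pass the test in any direction. Aggrecan (Acan) had 1.13, 1.73 and 2.31 CPM as the lowest, median and highest vehicle values and 0.742, 1.43 and 2.02 CPM in lemborexant libraries, which overlapped widely. Its log2 change was -0.37 ± 0.20 (SE, adjusted p = 0.245). Brevican (Bcan), made largely by astrocytes and by neurons, had the narrowest spread of the 8: 129, 153 and 164 CPM in vehicle and 112, 141 and 169 CPM in lemborexant libraries. Its log2 change was -0.09 ± 0.08 (SE, adjusted p = 0.476), and its sign turned on the TPM scale (0.13), where it stayed below the median gene. Neurocan (Ncan) ran from 229 over 362 to 578 CPM in vehicle and from 169 over 422 to 507 CPM in lemborexant libraries. Its group means were 373 and 373 CPM with SDs of 104 and 123, and its log2 change was -0.00 ± 0.20 (SE, adjusted p = 0.998). Versican (Vcan), a lectican also made by oligodendrocyte precursors, ran from 9.12 over 13.5 to 18.1 CPM in vehicle and from 12.4 over 14.5 to 21.4 CPM in lemborexant libraries. Versican's log2 change was 0.18 ± 0.14 (SE, adjusted p = 0.406), with 2 lemborexant libraries above every vehicle library. Its sign turned with voom (-0.04) and within the library numbers 859 to 933 (-0.26, against 0.34 within 1064 to 1602). With the hippocampal score as a covariate the log2 changes were -0.01 ± 0.26 for Acan, -0.27 ± 0.10 for Bcan, 0.31 ± 0.26 for Ncan and 0.07 ± 0.19 for Vcan (SE), and none passed.

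The tenascins did not pass either. Tenascin-R (Tnr), the crosslinker of the adult net, ran from 40.3 over 58.4 to 70.4 CPM in vehicle and from 32.0 over 52.7 to 81.0 CPM in lemborexant libraries. The log2 change of Tnr was 0.03 ± 0.15 (SE, adjusted p = 0.920), and its sign turned with the pairs summed (-0.05). With the hippocampal score as a covariate it was 0.36 ± 0.16 (SE, adjusted p = 0.295). Tenascin-C (Tnc), a matrix protein of the developing brain that astrocytes can make again after injury, ran from 2.30 over 2.58 to 5.10 CPM in vehicle and from 2.27 over 4.89 to 7.03 CPM in lemborexant libraries. Of the 10 lemborexant libraries 5 lay above every vehicle library and 1 below every one. The 5 were lemborexant 2 and both libraries of the nearly alike pairs 3 and 8, and 4 and 9. The log2 change was 0.51 ± 0.22 (SE, adjusted p = 0.165). Among the 15 libraries with at least 1 CPM of Cst7 it was 0.81 ± 0.22 (SE, adjusted p = 0.0583), or 0.74 (adjusted p = 0.127) with the pairs summed. Over all libraries with the hippocampal covariate it was 0.30 ± 0.32 (SE, adjusted p = 0.592). Limma's voom with quality weights gave 0.82 with an adjusted p of 0.00744, in a fit that called 2251 genes.

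**Figure D3:**
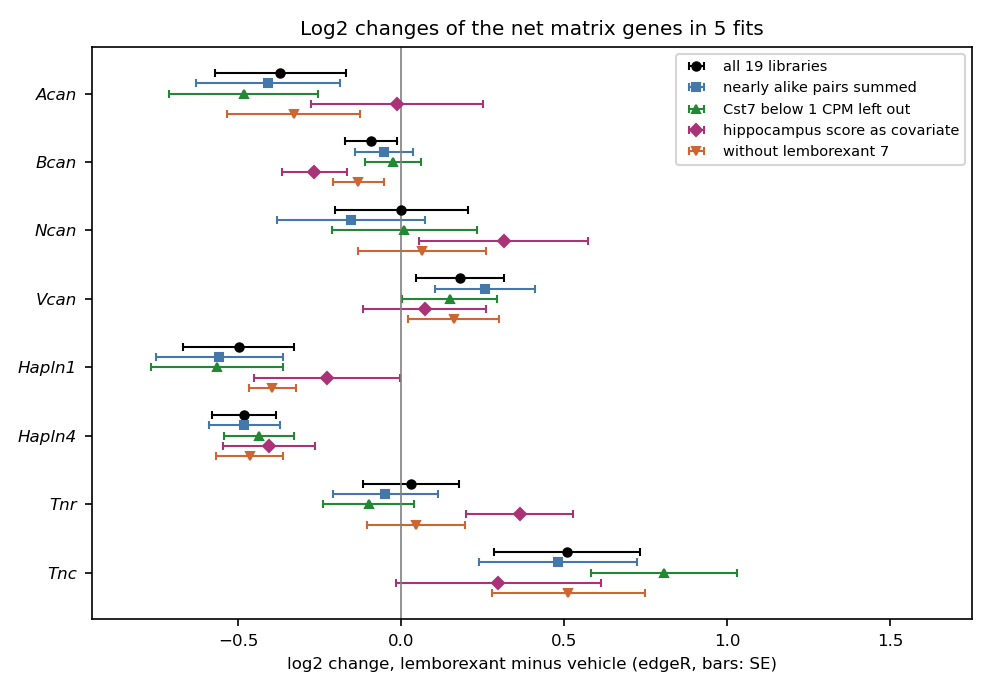
Log2 change of the 8 genes, lemborexant minus vehicle, with bars for 1 SE, in 5 edgeR fits. Hapln4 and Hapln1 lie below 0 in each of the 5 fits, from -0.57 to -0.23, and Tnc above 0, from 0.30 to 0.81.

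Interneurons, among them the parvalbumin cells that are the main bearers of nets in cortex, were followed by 11 marker genes. These were Pvalb, Syt2, Kcnc1, Kcnc2, Kcns3, Lhx6, Erbb4, Gad1, Gad2, Slc32a1 and Tac1. Not all of them are confined to parvalbumin cells, so their sum is not a measure of those cells alone. None of the 11 passed, 8 were higher and 3 lower, and the median log2 change was 0.15. Their summed level was 540 to 682 CPM in vehicle and 597 to 831 CPM in lemborexant libraries, with all 11 genes detected in every library. Pvalb itself ran from 32.9 over 42.7 to 87.7 CPM in vehicle and from 16.4 over 44.8 to 85.3 CPM in lemborexant libraries. Among oligodendrocyte precursor markers 0 of 10 passed, and among astrocyte markers 0 of 9.

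The split of libraries by Cst7 crosses the treatments, since 2 of the 4 low libraries came from each group. None of the 8 genes separated the 4 low libraries from the other 15, where 8.6% of all genes tested did (1210 higher and 433 lower in the other 15). The split rests on a measured gene, so the values are given as a description. The low libraries sat inside the range of the other 15 for Acan (1.13 to 1.57 against 0.742 to 2.31 CPM), for Hapln1 (14.3 to 17.7 against 3.77 to 20.8 CPM) and for Tnc (2.52 to 5.10 against 2.27 to 7.03 CPM). For Vcan (9.12 to 14.5 against 9.85 to 21.4 CPM), Hapln4 (21.2 to 40.0 against 21.7 to 42.4 CPM) and Bcan (112 to 164 against 129 to 169 CPM) they reached slightly lower. For Ncan they reached higher, from 362 over 473 to 578 CPM against 169 over 359 to 507 CPM. Tnr was at 78.9 and 81.0 CPM in lemborexant 1 and 10 and at 70.4 CPM in vehicle 1, above all 15 others (32.0 to 65.7 CPM), but at 47.3 CPM in vehicle 4. The median log2 difference, the other 15 minus the low 4, was -0.48 for Tnr and -0.40 for Ncan and lay between -0.02 and 0.31 for the remaining 6. Without vehicle 4, Tnr was the 1 gene of the 8 that separated the sets, as 15.5% of all genes did. Among lemborexant libraries alone, where the low set is a nearly alike pair, Tnr and Bcan did, as 35.3% of all genes did.

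Astrocyte genes moved with that split. Of 9 astrocyte markers 6 lay higher in the 15 libraries without overlap, Fgfr3 lay lower, and the summed level was 8059 to 16155 CPM against 5297 to 6081 CPM. Brevican, which astrocytes make, had a median log2 difference of 0.22 between the same sets. Of the cortical excitatory neuron markers 1 of 8, Camk2a, lay lower without overlap, where 8.6% of all genes did not overlap in either direction. The summed level of these markers was 599 to 2941 CPM against 3316 to 3563 CPM. What part these cell type markers have in the values of Ncan and Tnr was not tested.

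Within the 15 libraries with at least 1 CPM of Cst7, Tnc was lower where Cst7 was higher, and Tnr and Ncan had correlations of the same sign that did not pass. This relation was chosen after seeing the data, and was computed on log2 CPM over 13 units with the nearly alike pairs averaged, for all 19104 other genes. Tnc had a Pearson r of -0.68 (permutation p = 0.0126, adjusted over all genes 0.0490) and a Spearman rho of -0.76 (p = 0.00354, adjusted 0.0257). It was the 1 gene of the 8 past the threshold, a share no larger than the 25.9% of all genes that passed. Of all genes 8.68% had an r at least as negative. The 13 units pool both treatments, and the relation is given as a description. Among these 15 libraries the lemborexant ones had medians of 5.31 CPM of Tnc and 37.7 CPM of Cst7. The vehicle ones had medians of 2.57 and 64.9 CPM. What part treatment has in the relation was not tested. Without the 2 units farthest from the median of Cst7, the pair of lemborexant 3 and 8 and lemborexant 7, r for Tnc was -0.61. Tnr had an r of -0.63 (p = 0.0189, adjusted 0.0645) and a rho of -0.46 (p = 0.114, adjusted 0.237), and an r of -0.72 without those units. Ncan had an r of -0.62 (p = 0.0240, adjusted 0.0752) and a rho of -0.65 (p = 0.0182, adjusted 0.0711), and an r of -0.89 without them. For the other 5 genes r lay between -0.18 and 0.38 and none passed (lowest adjusted p = 0.332). Mean effective transcript lengths were 5720 to 7195 bases for Tnr, Ncan and Tnc and 2526 to 5230 bases for the other 5. Cst7 was at 144, 131 and 122 CPM in vehicle 5, lemborexant 6 and vehicle 3. These had 34.9, 26.6 and 32.9 TPM of Ncan at 258, 169 and 229 CPM. Vehicle 6 had 69.2 TPM of Ncan at 359 CPM, and vehicle 4, low in Cst7, had 52.3 TPM at 362 CPM. What part transcript length has in these correlations was not tested.

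**Figure D4:**
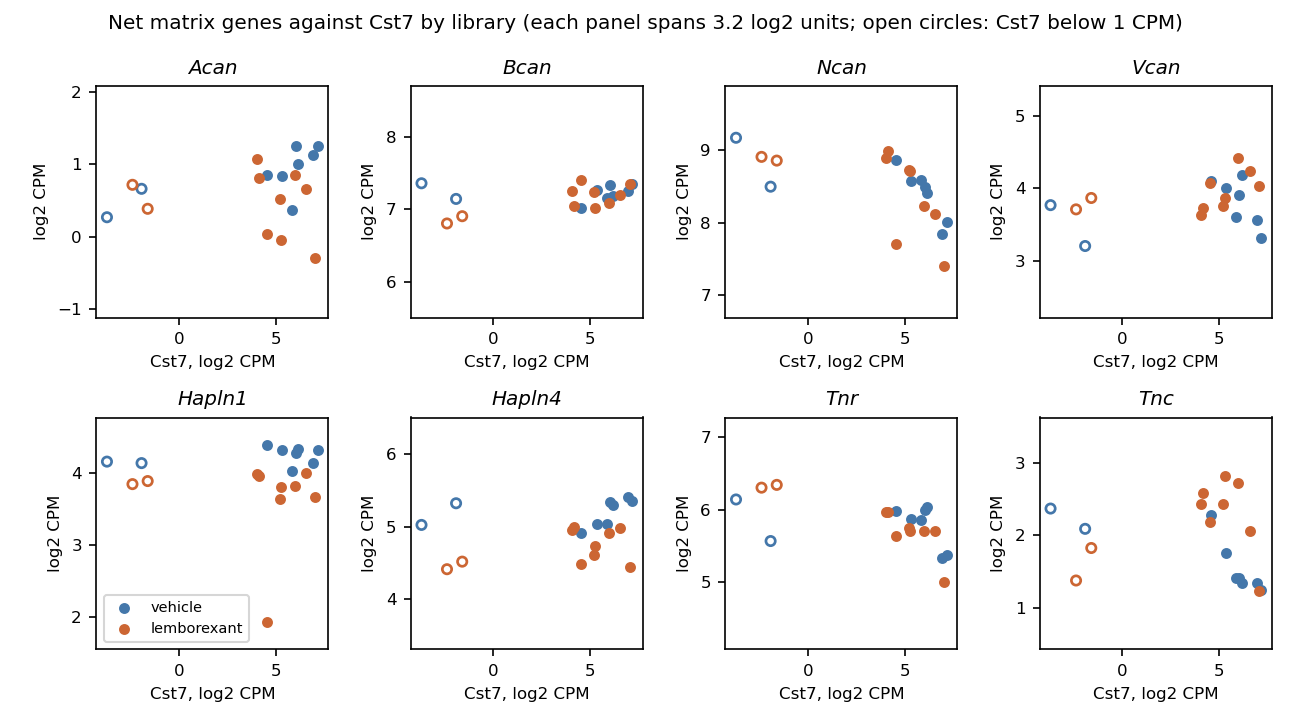
Log2 CPM of each gene against log2 CPM of Cst7, 1 point per library, each panel spanning the same height, with open circles for the 4 libraries below 1 CPM of Cst7. Among the filled points Ncan runs from 507 to 169 CPM, with lemborexant 7 (209 CPM) low at little Cst7.

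The correlations are also given within each treatment, and their differences were not tested. Ncan had an r of -0.94 over the 7 vehicle units and -0.59 over the 6 lemborexant units. In vehicle libraries it went from 469 CPM in vehicle 8, which had the least Cst7 of the 7 (23.3 CPM), to 258 CPM in vehicle 5, which had the most (144 CPM). Tnc had an r of -0.90 in vehicle and -0.61 in lemborexant units, and Tnr -0.75 and -0.73. Hapln4 went the other way in vehicle units, with an r of 0.89, and had an r of -0.13 in lemborexant units. Bcan had an r of 0.75 in vehicle and 0.08 in lemborexant units, and Acan 0.50 and -0.33. Vcan had an r of -0.73 in vehicle and 0.58 in lemborexant units, and Hapln1 -0.32 and 0.37. Each of these is over 6 or 7 units and is given as a description. The share of all genes with such an r was not computed within a treatment. Over the 13 pooled units 25.9% of all genes passed, and 12.9% had an r at least as negative as that of Ncan.

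Ncan and Tnr, which had like correlations with Cst7 (r of -0.62 and -0.63), and Bcan, whose r was 0.38, are shown by the bases just upstream of their transcription starts, to let the letters be compared. The windows run from 250 to 31 bases before the RefSeq start in GRCm38.p6, 5′ to 3′ on the gene's strand, with a GC box (GGGCGG on either strand) in capitals. They are chr8:70120875-70121094 on the minus strand for Ncan, chr1:159523519-159523738 on the plus strand for Tnr and chr3:88000387-88000606 on the minus strand for Bcan.
Ncan: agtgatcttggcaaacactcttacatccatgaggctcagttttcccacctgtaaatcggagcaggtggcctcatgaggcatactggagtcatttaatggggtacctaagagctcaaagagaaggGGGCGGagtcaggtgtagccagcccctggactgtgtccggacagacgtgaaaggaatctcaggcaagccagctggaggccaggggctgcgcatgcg
Tnr: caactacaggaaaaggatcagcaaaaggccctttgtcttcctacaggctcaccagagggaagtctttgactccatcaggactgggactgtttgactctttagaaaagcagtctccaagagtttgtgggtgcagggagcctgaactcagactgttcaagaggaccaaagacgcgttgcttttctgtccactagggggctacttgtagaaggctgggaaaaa
Bcan: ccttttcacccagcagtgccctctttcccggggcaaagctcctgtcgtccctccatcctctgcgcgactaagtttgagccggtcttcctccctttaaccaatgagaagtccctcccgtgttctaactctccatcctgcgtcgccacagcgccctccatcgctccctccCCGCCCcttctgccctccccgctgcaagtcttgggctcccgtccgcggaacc

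The Ncan and Bcan windows each held 1 GC box and the Tnr window none, where 28.5% of 32851 windows of the same length held it. None of the 3 windows held an E box (CACGTG, 5.01% of windows), a TATA box (TATAAA, 9.95%), a cyclic AMP element (TGACGTCA, 1.14%) or an AP-1 site (TGANTCA, 6.12%), searched on both strands. Over the same windows the GC content was 55.5% for Ncan, 49.1% for Tnr and 62.7% for Bcan. These matches are descriptions of letters, and of the 8 genes 7 had an entry in the RefSeq table used.

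The genes with the pattern most like a member were sought among 14156 protein-coding genes, by the root mean square difference of centred log2 CPM over the 16 units. Tnr had the closest matches, Tbck at 0.09, Dnajc16 at 0.10 and Gnaq at 0.10, where the median gene differed by 0.46. Ncan was nearest to Mn1 at 0.13, Hdac9 at 0.13 and Hsd17b7 at 0.16 (median gene 0.57). Vcan was nearest to Elmsan1, Jmjd1c and Pik3c2a, at 0.13 to 0.14, and Hapln4 to Dclk2, Atp1b1 and Ccnd1, at 0.16 to 0.17. The sparsely read genes had looser matches: Tnc was nearest to Alpl, Slc5a6 and Slc26a2, at 0.28 to 0.32, and Acan to Scrt2, Tle1 and Hapln4, at 0.26 to 0.27. Hapln4 was the 1 member of the 8 among the nearest genes of another member. Bcan varied too little over the units (SD 0.15) to be matched.

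The wider matrix pathway was followed in 4 lists: other proteoglycans, link proteins and synthases, receptors and partners, chondroitin sulphate synthesis, and proteases, hyaluronidases and their inhibitors. Together the lists had 4 genes past the threshold, 1 higher and 3 lower, each read against the 2.61% of all genes called. None passed with the nearly alike pairs summed or with the hippocampal score as a covariate, fits in which 0 genes passed.

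Among the other proteoglycans, link proteins and hyaluronan synthases 0 of 11 tested genes passed, with 7 higher, 4 lower and a median log2 change of 0.12. Hapln2, a link protein of the node of Ranvier made by oligodendrocytes, had a log2 change of 0.16 ± 0.19 (SE) after lemborexant. It was at 5.85 to 9.42 CPM in the 4 libraries low in Cst7 and at 7.65 to 18.9 CPM in the other 15. Spock3, a testican proteoglycan, had a log2 change of 0.34 ± 0.11 (adjusted p = 0.0858), and the matricellular gene Smoc2 one of -0.78 ± 0.27 (adjusted p = 0.0912). The hyaluronan synthase gene Has1 was at 2.14 ± 0.46 CPM in vehicle (SD, n = 9) and 3.09 ± 1.34 CPM in lemborexant libraries (SD, n = 10), and did not pass (adjusted p = 0.210).

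Of 13 receptors and partners of the net 1 passed. Sema3a, a secreted guidance cue held in nets through chondroitin sulphate, rose. It had a mean of 2.69 ± 1.46 CPM in vehicle (SD, n = 9) and of 7.74 ± 3.79 CPM in lemborexant libraries (SD, n = 10). Its log2 change was 1.53 ± 0.34 (SE), at an edgeR adjusted p of 0.0284, and 1.31 with an adjusted p of 0.0988 with the pairs summed. Ptprf, a receptor phosphatase for chondroitin sulphate, had a log2 change of 0.47 ± 0.13 and did not pass (adjusted p = 0.0566). Cd44, a hyaluronan receptor, did not overlap in the split by Cst7, at 1.93 to 11.9 CPM in the low libraries and 20.6 to 81.8 CPM in the others. The integrin gene Itgb1, named after its values were seen, was the other gene of the list that lay higher in the 15 libraries without overlap. Cd44 and Itgb1 were 2 of 13, where 8.6% of all genes tested did not overlap. Otx2, a homeoprotein that nets take up, ran from 0.0868 to 27.1 CPM among the 15 libraries. The choroid plexus, which makes Otx2, had a summed level over 10 markers of 184 to 13883 CPM in the same libraries, and its part in Otx2 was not tested.

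Chondroitin sulphate chains are built by polymerases and sulphated by transferases, and 2 of 21 such genes passed, both lower. Ust, which sulphates uronic acid in the chain, fell, with 23.7 ± 3.47 CPM in vehicle (SD, n = 9) and 14.3 ± 3.95 CPM in lemborexant libraries (SD, n = 10). Ust had a log2 change of -0.73 ± 0.15 (SE) at an edgeR adjusted p of 0.0254. With the hippocampal score as a covariate it was -0.27 (adjusted p = 0.306). Chpf, which forms the polymerase with a chondroitin synthase, fell by 0.47 ± 0.11 on the log2 scale (SE, adjusted p = 0.0306), from 37.9 ± 9.15 to 27.3 ± 2.03 CPM (SD, n = 9 and 10). With the pairs summed the adjusted p-values were 0.0711 for Ust and 0.0972 for Chpf, and without the 4 libraries low in Cst7 that of Chpf was 0.0536. Of the 21 genes 15 were lower and 6 higher, with a median log2 change of -0.12 against 0.03 over all genes. The sulphotransferase genes Chst3 and Chst14 had the largest median differences in the split by Cst7, 1.20 and 1.10, at levels near 1 CPM, and their values overlapped. Fam20b, a xylose kinase gene of chain assembly named here after its values were seen, was the 1 gene of the list without overlap, and lay lower in the 15 libraries. That is 1 of 21, where 8.6% of all genes tested did not overlap.

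Among proteases, hyaluronidases and their inhibitors 1 of 23 passed. Mmp17, a membrane-anchored metalloprotease, fell, with 57.3 ± 6.72 CPM in vehicle (SD, n = 9) and 42.4 ± 7.94 CPM in lemborexant libraries (SD, n = 10). Its log2 change was -0.44 ± 0.11 (SE) at an edgeR adjusted p of 0.0421, and it did not pass with the pairs summed (adjusted p = 0.0919). Cemip2, a cell-surface hyaluronidase, had a log2 change of 0.41 ± 0.12 (adjusted p = 0.0600). Of the 23 genes 16 were higher and 7 lower, with a median log2 change of 0.27. Ctss, the microglial protease cathepsin S, did not overlap in the split by Cst7, at 91.4 to 155 CPM in the low libraries and 347 to 1594 CPM in the others. The gelatinase gene Mmp2 did not overlap either, at 1.41 to 2.06 against 3.50 to 7.19 CPM. Ctss and Mmp2 were 2 of 23, where 8.6% of all genes tested did not overlap. The treatment changes of Ctss and Mmp2 were -0.20 ± 0.49 and 0.15 ± 0.28 (log2, SE) and did not pass.

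**Figure D5:**
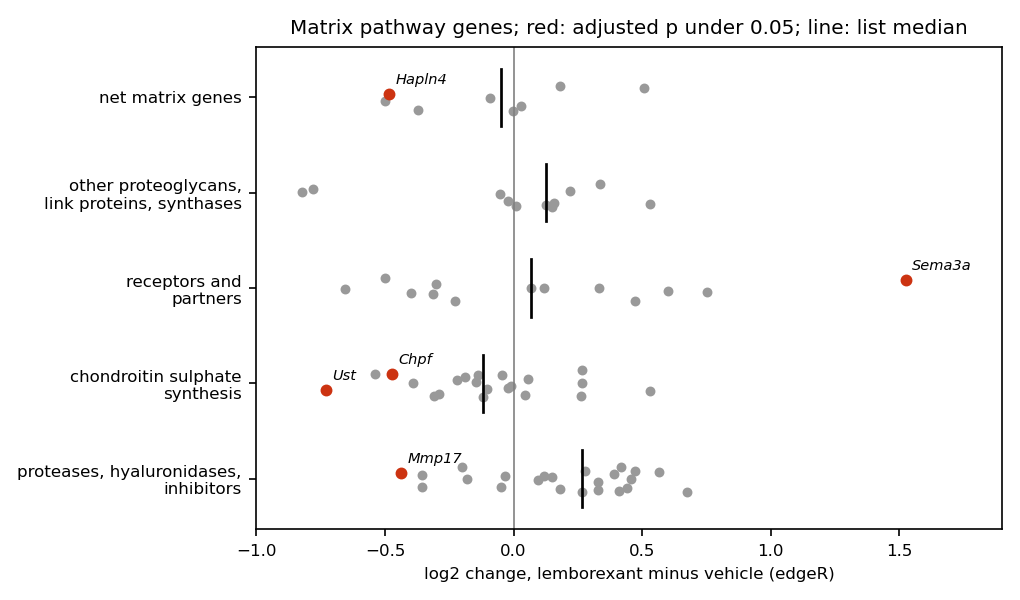
Log2 change, lemborexant minus vehicle, of every tested gene of the 8 net matrix genes and of the 4 pathway lists, with genes past the threshold in red and list medians as lines. Hapln4, Chpf, Ust and Mmp17 lie below 0 and Sema3a, at 1.53, lies above every other gene shown.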

How the data were processed

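Cortical RNA was taken up in TRIzol and chloroform, cleaned on Qiagen columns and turned into libraries by a SMARTer Ultra Low method from Takara, per the labels' protocols. The submitters' processing notes name bcl2fastq, DRAGEN 3.9.3-8 and the GRCm38 build. The deposited tables hold an estimated count and a TPM value per gene, per the file headers. For the authors' annotation, filters and strand setting nothing is given in the sources used here. Symbols and coordinates came from GENCODE M21, which named 55141 of 55487 identifiers.

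Estimated counts were rounded and tested with edgeR 4.0.16 (R 4.3.3), using the quasi-likelihood test with TMM factors, its expression filter and robust dispersion. Tests were two-sided, p-values were adjusted by Benjamini and Hochberg's method over the 19105 genes, and 0.05 was the threshold. CPM were scaled by TMM factors, with a prior count of 2 on the log2 scale. The SE is the log2 change divided by the square root of F. Alternatives used DESeq2 1.42.0, limma 3.58.1 and log2(TPM + 1) or log2(TPM + 0.1) where the mean TPM reached 1, which leaves out Acan and Tnc. Correlations with Cst7 used 100000 permutations (two-sided), and were added after seeing the data, as was leaving out units with pairs summed.

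Groups came from the treatment labels, and replicates were numbered in accession order. Where the series' design text mentions triplicates, the group sizes of the labels, 10 and 9, were used. The members and lists were chosen with earlier results of these data known. Besides the 8 members, genes named from the pathway lists are those past the threshold, the 2 with the smallest p and the 2 with the largest median difference in the split by Cst7 among genes of at least 1 CPM. With at least 20185098 reads per library, counting error is largest for Acan, which had as few as 16 reads. The genes most like Hapln1 are not reported here.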

Additional observations from a re-analysis of the deposited data

Results flagged for a closer look

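Hapln1 in lemborexant 7 was at 3.77 CPM, far below the other 9 lemborexant libraries, the next of which was at 12.4 CPM. The gap to the nearest library was 0.713 of the group's whole range. Among 16 groups, 8 genes in 2 treatments, 1 was marked in this way, and chance marks about 1 group in 20. The same library had the lowest summed level of cortical excitatory neuron genes, 599 CPM against a median of 1689 CPM in the lemborexant group, and 16.4 CPM of Pvalb, the lowest of its group.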

How the results depend on the processing

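Of the 8 genes 1 passed with RLE factors, without the expression filter, with the library number range or the Cst7 split as a covariate, and without the libraries low in Cst7. None passed with log2(TPM + 1), log2(TPM + 0.1), the pairs summed, the libraries 1064 to 1602 alone, those numbered 859 to 933 alone, the libraries low in Cst7 left out with pairs summed, or the hippocampal covariate, which is 0 members each. With DESeq2, a threshold of 0.1, or lemborexant 7 and vehicle 7 left out (the vehicle library with 852 CPM of liver genes) 2 passed, Hapln1 and Hapln4, and with voom 3. Over all genes, 498 calls became 254 without the filter, 1825 with DESeq2, 2251 with voom, 118 and 26 on the TPM scales, 294 with the number range as a covariate, 1130 with the Cst7 split as a covariate, 307 without lemborexant 7 and vehicle 7 and 2137 at the threshold of 0.1. They became 8 and 0 in the number ranges alone and 0 with the pairs summed, with those low in Cst7 left out as well, or with the hippocampal covariate. Leaving out each library or unit gave 0 to 1274 calls, 0 to 2 of them members. Calls moved by over 1.5 times without lemborexant 2 (237), 4 (35), 6 (1130), 8 (257) or 9 (31), and without vehicle 1 (844), 2 (250), 3 (189), 4 (39), 5 (76), 6 (275), 7 (302) or 8 (1274). With pairs summed, leaving out the unit of lemborexant 1 and 10 gave 818 calls, Hapln4 among them. The number of members that separate in the split by Cst7 was 2 in lemborexant libraries alone and 0 to 1 on leaving out each library. Hapln4 and Hapln1 were lower in every alternative run, with log2 changes of -0.54 to -0.24 and -0.62 to -0.23. The cause of these changes was not tested. No paired analysis was possible because the labels give no replicate numbers. Acan, with 16 to 69 reads per library, had the fewest reads of the 8.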
